A study of Cunninghamia lanceolata with 18 samples.

Results

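The clones C1 and C11 of Chinese fir (Cunninghamia lanceolata), a conifer grown for timber, were compared in the upper phloem (UP), the inner bark of the main stem next to the apical bud. The comparison used 6 of the 18 RNA-seq libraries of the series, the 3 UP libraries of C1 and the 3 of C11, chosen by the tissue and clone in their labels and normalized among themselves. The other 12 libraries came from the apical bud (AB) and the lateral bud (LB) of the same clones. C1 was selected in the study for longer internodes and C11 for shorter ones, and each clone is 1 genotype, so a difference between them is a difference between these particular clones. No treatment was given to either group. Field-grown trees were sampled, 3 individuals per clone at each collection, and their age at collection is not stated with the RNA methods. Those methods give 21 days after apical bud sprouting as the collection day for C1 and 28 days for C11, whereas the account of the hormone sampling has lateral buds appearing in the reverse order. The day of collection therefore goes with the clone, and day and clone cannot be told apart in any value below.

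Phloem carries sugars, hormones and signalling RNAs along the stem, and auxin made in the apical bud moves down through the tissues beside and inside it. Auxin from the apex holds lateral buds back, strigolactones act in the same direction, cytokinins promote bud outgrowth, and brassinosteroids promote cell elongation. The amount of each hormone depends on enzymes that make it, enzymes that oxidise or conjugate it, and transporters, and the genes below are ordered by these roles. No sequence is shown for any gene, since only counts per gene identifier were used, and no chromosome position was used either. Gene names come from the study's matches to other species. Genes given by an identifier alone have no annotation in the sources used here.

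Between 26796290 and 31527488 reads per UP library were counted on genes, and 27190 to 27963 genes had at least 1 count. Of 46723 genes in the table, 13450 had no count in UP and 24167 passed the low-count filter and were tested. Levels are given as CPM, counts scaled to a common library size with TMM factors of the 6 libraries, and a log2 fold change is C1 minus C11, so a positive value means higher in C1. C11 replicate 1 had the lowest scaling factor, 0.836, against 1.01 to 1.08 in the other 5 libraries. The C1 libraries resembled one another more than the C11 libraries did. Pearson correlations of log2(CPM + 1) across genes were 0.969 to 0.984 within C1 and 0.789 to 0.940 within C11, where replicate 3 stood apart (0.789 and 0.841 with replicates 1 and 2). The C11 libraries correlated with those of C1 at 0.914 to 0.925 for replicate 2, at 0.845 to 0.862 for replicate 1 and at 0.811 to 0.822 for replicate 3. The biological coefficient of variation, the relative spread between replicates beyond counting error, was 0.29 in C1 and 0.73 in C11. A range of more than 2 log2 units within a clone was seen for 273 genes in C1 and 4209 genes in C11, and replicate 3 was the farthest from the median of its clone in 69.9% of the latter.

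Each library was checked against its clone label with genes chosen in the buds only. In AB and LB, 155 genes had at least 10 counts in every C1 library and none in any C11 library. In UP the C1 libraries had counts for 154, 154 and 153 of them, and the C11 libraries for 7, 2 and 12. The reverse pattern in the buds held for 186 genes, of which the C11 libraries of UP had counts for 183, 185 and 178 and the C1 libraries for 12, 11 and 9. All 6 UP libraries thus carried the genes of the clone they are labelled with, including C11 replicate 3. The tissue label could not be checked in the same way, because no identifier of a phloem or cambium marker is given in the sources used here.

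**Figure D1:**
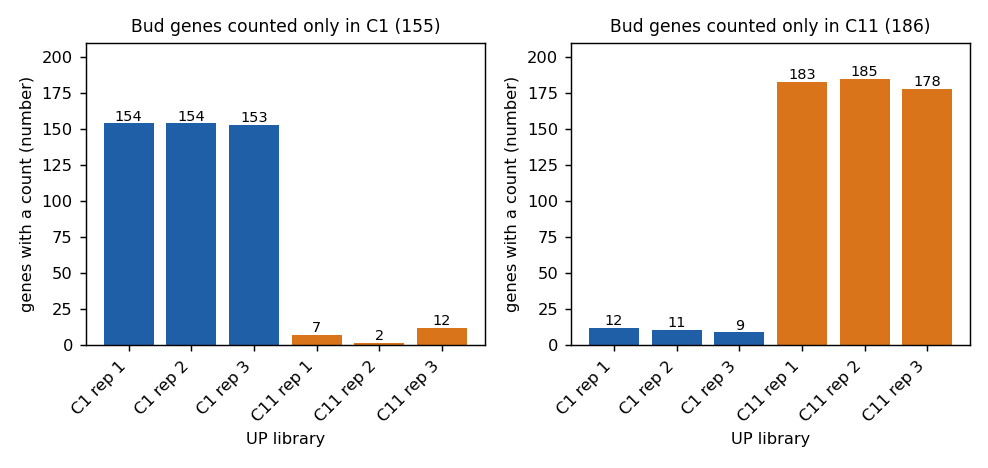
Number of genes with at least 1 count in each UP library, for the 155 genes counted only in C1 in the buds (left) and the 186 genes counted only in C11 in the buds (right). C1 libraries are blue and C11 libraries orange, and each library held nearly all genes of its own clone and at most 12 of those of the other.

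With edgeR's quasi-likelihood test, 951 of the 24167 genes (3.94%) differed between the clones by at least 2-fold at an FDR under 0.05. Of these, 415 (1.72%) were higher in C1 and 536 (2.22%) were lower. A further view of the same data is that 4796 genes (19.8%) had an unadjusted p under 0.05, that DESeq2 called 3230 genes (13.4%), and that the values of the clones did not overlap for 7318 genes (30.3%). The called differences were large. Their median absolute log2 fold change was 6.09, against 0.50 over all genes tested, and 539 of the 951 exceeded 5. The smallest was 1.01. The fitted median was 7.47 among the genes higher in C1 and 4.56, as an absolute value, among those lower. These medians include 391 genes without counts in one clone, whose fitted fold has no firm size. With these at the lower bound defined below, the medians were 4.67 for all called genes, 5.03 for those higher and 4.36 for those lower, and 432 exceeded 5.

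Most called genes were expressed at a low level. The share called was 7.59% at a mean below 1 CPM, 5.70% at 1 to 10 CPM, 2.17% at 10 to 100 CPM and 1.15% at 100 CPM or more, which was 26 genes. The genes called higher in C1 took 0.754% to 0.841% of the normalized reads in C1 and 0.103% to 0.115% in C11. Those called lower took 0.262% to 0.277% in C1 and 1.29% to 1.53% in C11. Calls were also more frequent among genes with identifiers that begin with NewGene (387 of 3887 tested, 9.96%) than among those that begin with Cula (564 of 20280, 2.78%).

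**Figure D2:**
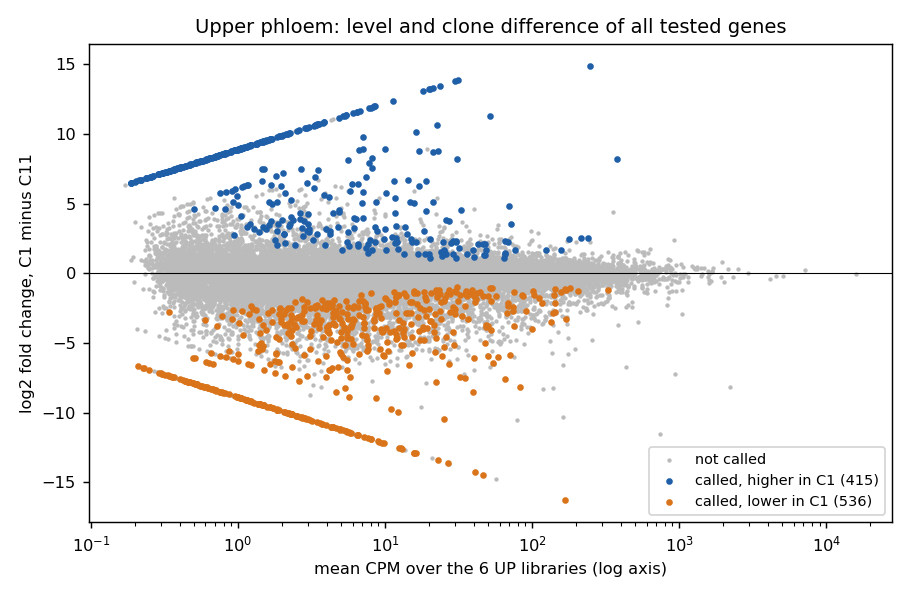
Log2 fold change, C1 minus C11, against the mean CPM over the 6 UP libraries (log axis) for the 24167 tested genes. The 415 genes called higher in C1 are blue, the 536 called lower are orange and the rest are grey, and the straight outer edges are genes with no counts in one clone, whose fitted fold depends on a small count added by the software.

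The number of calls depended on which libraries were in the fit, and each fit with a library left out also has fewer degrees of freedom. Without C11 replicate 3, edgeR called 2683 genes, among them 941 of the 951. Without C11 replicates 1 and 2 it called 189 and 17 genes. Without C1 replicates 1, 2 and 3 it called 0, 0 and 9 genes, with 3561, 3003 and 3339 genes at an unadjusted p under 0.05. All 951 genes were tested in each of these 6 fits and kept their direction in each. Where the values of the clones do not overlap, leaving out a library can hardly turn the direction, so this is no separate support. Of the genes that were called only without C11 replicate 3 and had been tested with it, 1552 in number, 998 were lower in C1, and in 1169 the value of that library lay on the C1 side of both other C11 libraries. Such a position helps to keep a gene from being called with that library, so the 1169 follow in part from how the genes were selected.

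The strongest evidence among genes higher in C1 came from genes that were close to silent in C11. Cula0010131 had 474, 399 and 623 CPM in the C1 libraries and 1 count in the 3 C11 libraries together. The level in C1 was 40527 times that in C11, with an exact 95% interval of 7273 to 1600770 for counting error alone (edgeR, adjusted p = 0.00556). Cula0001703, the called gene with the highest mean level, had 748, 643 and 858 CPM in C1 and 3.69, 1.84 and 2.02 CPM in C11. Its log2 fold change was 8.22 (SE 0.45 and adjusted p = 0.00556 in edgeR). Both were among the called genes in AB and LB too. Cula0024584 had 28.3, 24.6 and 38.4 CPM in C1 and 0.86, 1.13 and 0.81 CPM in C11, so the log2 fold change was 5.02 (SE 0.32 and adjusted p = 0.00778 in edgeR). All 3 had groups of values far apart, with little spread in either clone.

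Cula0015650 was an exception among the genes of smallest p, in that its difference was of this size in UP alone. It had 13.2, 14.2 and 11.4 CPM in C1 and 0.157, 0.136 and 0.147 CPM in C11, so the log2 fold change was 6.42 (SE 0.34 and adjusted p = 0.00556 in edgeR). In AB the log2 fold change was 2.76 and in LB -1.95, and neither was called. The libraries of both buds were uneven, with 0, 86 and 41 counts in the C1 libraries of LB and 222, 180 and 2 counts in those of C11. The difference between its clone effects in UP and LB had an unadjusted p = 0.00109 and an adjusted p = 1.00 in edgeR, and thus did not pass the test.

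Among genes lower in C1, Cula0022327 had 1.35, 0.855 and 1.46 CPM in C1 and 115, 98.8 and 107 CPM in C11. The log2 fold change was -6.44 (SE 0.30 and adjusted p = 0.00556 in edgeR). Cula0009198 had 0.123, 0.147 and 0.1996 CPM in C1 and 19.99, 19.2 and 21.9 CPM in C11, with a log2 fold change of -6.99 (SE 0.34 and adjusted p = 0.00556 in edgeR). For both, C11 replicate 3 lay between or just above the other C11 libraries, so the library that stood apart across all genes did not do so here. Cula0019510 had 1.17, 0.973 and 1.60 CPM in C1 and 49.7, 44.7 and 53.4 CPM in C11 (log2 fold change -5.30, SE 0.29, edgeR's adjusted p = 0.00556). Cula0020391 had 0.800, 0.855 and 0.333 CPM in C1 and 161, 117 and 114 CPM in C11, so the log2 fold change was -7.61 (SE 0.48 and adjusted p = 0.00778 in edgeR). All 8 genes of smallest p in this direction were called in LB and 7 of them in AB.

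Abundant genes that were called differed by smaller folds, and most of them were lower in C1. Of the 26 called genes at 100 CPM or more, 7 were higher in C1 and 19 were lower. Cula0023854 had 278, 298 and 335 CPM in C1 and 55.6, 56.0 and 52.4 CPM in C11, so the log2 fold change was 2.48 (SE 0.19 and adjusted p = 0.0104 in edgeR). Cula0025995 had 218, 228 and 265 CPM in C1 and 87.8, 67.4 and 70.8 CPM in C11, so the log2 fold change was 1.65 (SE 0.20 and adjusted p = 0.0227 in edgeR). Values within each clone were close together and those of the clones well apart. Cula0035826 had 386, 429 and 416 CPM in C1 and 108, 49.6 and 57.9 CPM in C11, at a log2 fold change of 2.52 (SE 0.35 and adjusted p = 0.0276 in edgeR). Of the abundant genes lower in C1, Cula0027737 had 33.9, 19.0 and 45.04 CPM in C1 and 345, 238 and 345 CPM in C11, which is -3.24 on the log2 scale (SE 0.39 and adjusted p = 0.0226 in edgeR). Most others in this direction differed by little more than the threshold. Cula0009505 had 196, 206 and 189 CPM in C1 and 455, 397 and 520 CPM in C11, so the log2 fold change was -1.21 (SE 0.21 and adjusted p = 0.0395 in edgeR). Cula0016683 had 117, 111 and 131 CPM in C1 and 245, 254 and 233 CPM in C11, so the log2 fold change was -1.03 (SE 0.18 and adjusted p = 0.0407 in edgeR). It sat just past the fold threshold, and it was not called with upper quartile scaling or in the fit of all 18 libraries.

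A group of genes had no counts at all in one clone. In UP, 271 genes had at least 10 counts in each C1 library and 0 in all C11 libraries, which is 1.23% of the 22009 genes that met the minimum in C1. The opposite pattern held for 263 genes, 1.28% of the 20576 that met it in C11. Of the 271 genes, 167 were NewGene identifiers and 226 were called by edgeR, and of the 263 genes these numbers were 131 and 165. A total of 391 of the 951 calls were of this kind. The fold against a group at 0 is a lower bound, set with 3 counts over its 3 libraries as the floor.

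NewGene_10289 had 54.7, 64.0 and 68.0 CPM in C1 and was at least 1699-fold higher there than in C11. NewGene_12758 had 50.7, 58.9 and 70.5 CPM in C1, at least 1634-fold above C11. Their C1 libraries lay close together, unlike those of Cula0000551, which had 96.8, 22.9 and 21.6 CPM (at least 1296-fold). In the other direction, NewGene_3214 had 208, 245 and 557 CPM in C11 and no counts in C1, at least 10837-fold higher in C11. Cula0017089 had 87.3, 152 and 41.0 CPM in C11 (at least 3049-fold) and Cula0012397 had 96.7, 109 and 39.8 CPM (at least 2641-fold). Cula0002046 had 20.1, 27.3 and 295 CPM in C11 and none in C1, and with 1 library carrying most of its level it was not called (edgeR, adjusted p = 0.0697).

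Many of these absences were also seen in the buds. Of the 271 genes without counts in C11 in UP, 186 also had none in any C11 library of AB or LB. Of the 263 genes without counts in C1 in UP, 201 had none in any C1 library of the buds. An absence in the buds says little where the other clone has few counts there too. At least 10 counts in each bud library of the other clone were seen for 124 of the 186 and 137 of the 201. In 6 of the 271 genes the silent clone had at least 10 counts in each library of a bud, and in 2 of the 263. Cula0030784, described below with the test between tissues, was 1 of the 6. Cula0008995, named after its values were seen, had UP counts of 72, 44 and 73 in C1 and 0 in each library of C11, whereas the C11 libraries had 85, 60 and 330 counts in AB and 70, 94 and 424 in LB. The difference between its clone effects in UP and the buds did not pass in edgeR (adjusted p = 0.320 against AB and 0.125 against LB). Cula0020763 and Cula0025990, also picked afterwards, had UP counts of 10, 21 and 21 and of 10, 21 and 20 in C1 and 0 in C11, too few for a test, and 34 to 235 and 43 to 403 counts in the C11 libraries of the buds. These genes were therefore counted in C11 trees, but not in their UP libraries.

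Of 3 tested genes labelled DAO, 1 was called, and it was higher in C1. DAO is a dioxygenase that oxidises auxin (indole-3-acetic acid) and so removes its active form. The homolog called was NewGene_15463, an identifier taken from an earlier description of these data. The text of the study gives NG_15483 instead, and no gene of that number was found among the counts. NewGene_15463 had 2.74, 3.10 and 3.13 CPM in C1 and 1 count in the C11 libraries, and was called higher in C1 (edgeR, adjusted p = 0.0215). The homolog Cula0007806 had 6.44, 2.57 and 2.39 CPM in C1 and 26.9, 12.5 and 35.1 CPM in C11, at a log2 fold change of -2.71 (SE 0.58) that did not pass (edgeR, adjusted p = 0.0652). Cula0018198 had 0.216 CPM in C1 replicate 1, none in the other C1 libraries and 4.83, 2.01 and 0.696 CPM in C11 (log2 fold change -5.04, edgeR's adjusted p = 0.144). The libraries of the clones did not overlap for any of these 3 genes, and DESeq2 called all 3, against 30.3% and 13.4% of all genes tested and 3.94% called by edgeR. The DAO, cytokinin and strigolactone genes were picked by the study as changed on these libraries, so such counts are no independent evidence. A further DAO homolog, NewGene_11922, had too few counts to be tested, with 52, 11 and 5 in C1 and 0 in C11.

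UGT85A1, in Arabidopsis a glucosyltransferase that conjugates cytokinin, was counted in C1 alone. Its homolog Cula0012956 had 8.71, 8.11 and 3.63 CPM in the C1 libraries of UP and no counts in C11, where it was called (edgeR, adjusted p = 0.0271). The fold was at least 189.

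All 6 strigolactone genes had lower means in C1, and none of them was called by edgeR, with 3 at an unadjusted p under 0.05 and 3 called by DESeq2. Over all genes tested the shares were 19.8% and 13.4%. D27 and the CCD enzymes act on carotenoids in or near the route to strigolactone, PDR1 exports strigolactone in petunia, and DAD2 is its receptor there. For PDR1 the homolog Cula0032575 had 4.46, 4.10 and 3.13 CPM in C1 and 7.78, 8.33 and 17.7 CPM in C11. Its log2 fold change was -1.53 (SE 0.43 and adjusted p = 0.121 in edgeR). The other PDR1 homolog, Cula0033669, had 9.18, 7.96 and 6.42 CPM in C1 and 253, 33.6 and 3.30 CPM in C11, so that its C11 libraries spanned both sides of the C1 range. The log2 fold change was -3.62 (edgeR, adjusted p = 0.232), -1.22 without C11 replicate 1, and -4.17 without C11 replicate 3, where it was called (edgeR, adjusted p = 0.0396).

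For CCD4 (Cula0029135) and DAD2 (Cula0022349) the lower mean in C1 rested on C11 replicate 3. CCD4 had 6.28, 2.83 and 2.33 CPM in C1 and 3.14, 8.29 and 108 CPM in C11, and its log2 fold change of -3.38 became -0.58 without that library. DAD2 had 50.2, 39.6 and 30.4 CPM in C1 and 25.7, 37.2 and 145 CPM in C11, and its log2 fold change of -0.79 became 0.35 without it. For CCD the clones overlapped, and for D27 they lay just apart. CCD (Cula0015579) had 24.3, 38.1 and 10.3 CPM in C1 and 43.5, 21.3 and 57.2 CPM in C11 (log2 fold change -0.75, edgeR's adjusted p = 0.506). D27 (Cula0004245) had 11.5, 13.4 and 4.96 CPM in C1 and 19.1, 14.7 and 16.5 CPM in C11 (log2 fold change -0.75, edgeR's adjusted p = 0.358).

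Of the 10 brassinosteroid genes that the study's text gives with an identifier, edgeR called 2 higher and 5 lower in C1, against 3.94% of all genes. They are a part of the study's longer list of changed brassinosteroid genes, most of which it reports as lower in C1. DESeq2 called all 10 and the clones did not overlap in any of them, against 13.4% and 30.3%. The study picked these genes as changed on the same libraries, so the counts are no independent evidence of a direction. The brassinosteroid biosynthesis genes of the pink module, a set of co-expressed genes described below, had 4 of 6 members tested, 3 with higher and 1 with lower means in C1 and a median log2 fold change of 0.57. Of these edgeR and DESeq2 called 0, with 0 at an unadjusted p under 0.05. DWF4, a hydroxylase in brassinosteroid synthesis, had 1.32, 0.649 and 0.233 CPM in C1 and 9.11, 15.1 and 70.7 CPM in C11 (Cula0009250). Its log2 fold change of -5.42 missed the threshold (SE 1.11 and adjusted p = 0.0562 in edgeR) and passed it without C11 replicate 3, at -4.03 (edgeR, adjusted p = 0.0322). CYP720B2 (Cula0019011), from a P450 subfamily known in conifers for resin acid synthesis, had 0.708, 0.236 and 0.865 CPM in C1 and 82.7, 71.4 and 7.92 CPM in C11. The log2 fold change was -6.48 (SE 1.09 and adjusted p = 0.0395 in edgeR), and here C11 replicate 3 was the lowest of its clone rather than the highest.

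BAS1 is a P450 that inactivates brassinosteroids, and its 4 homologs divided between the directions. Cula0022875, with the highest CPM of the 4, had 106, 99.2 and 122 CPM in C1 and 22.7, 13.4 and 30.8 CPM in C11. Its log2 fold change was 2.30 (SE 0.34 and adjusted p = 0.0300 in edgeR). Cula0015277 had 1.02, 1.71 and 1.13 CPM in C1 and no counts in C11, at least 35.4-fold higher in C1 (edgeR, adjusted p = 0.0339). Against these, Cula0030167 had 1.14, 1.15 and 0.998 CPM in C1 and 13.7, 13.1 and 41.2 CPM in C11, so the log2 fold change was -4.36 (SE 0.58 and adjusted p = 0.0263 in edgeR). Cula0034399 had 5.85, 5.40 and 5.95 CPM in C1 and 0.550, 0.512 and 1.69 CPM in C11, at a log2 fold change of 2.64 that missed the threshold (SE 0.58 and adjusted p = 0.0669 in edgeR) and passed it without C11 replicate 3, at 3.43 (edgeR, adjusted p = 0.00973). Thus 3 homologs had higher mean levels in C1 and 1 had a lower one. Reads of near-identical members of a family could have been shared between them, since the counting of such reads is not given in the sources used here.

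LRK10 and SD25 are receptor-like kinases of plants that the study placed with the brassinosteroid genes. The LRK10 homolog Cula0016476 had 2.00, 0.826 and 0.565 CPM in C1 and 11.5, 15.4 and 12.7 CPM in C11 (log2 fold change -3.54, standard error 0.56, edgeR's adjusted p = 0.0339). Cula0032790 had 1.69, 2.06 and 1.696 CPM in C1 and 55.3, 30.3 and 10.8 CPM in C11 (log2 fold change -4.14, standard error 0.64, edgeR's adjusted p = 0.0325). Cula0029067 was called lower as well, at -4.04 (SE 0.75 and adjusted p = 0.0458 in edgeR). SD25 (Cula0018899) had 2.59, 3.18 and 2.03 CPM in C1 and 86.5, 34.8 and 3.55 CPM in C11. It was not called (log2 fold change -3.998, edgeR's adjusted p = 0.114), and C11 replicate 3, the lowest of its clone, lay just above the C1 range. The log2 fold change of SD25 was -2.87 without C11 replicate 1 and -4.53 without C11 replicate 3, where it was called (edgeR, adjusted p = 0.0119).

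**Figure D3:**
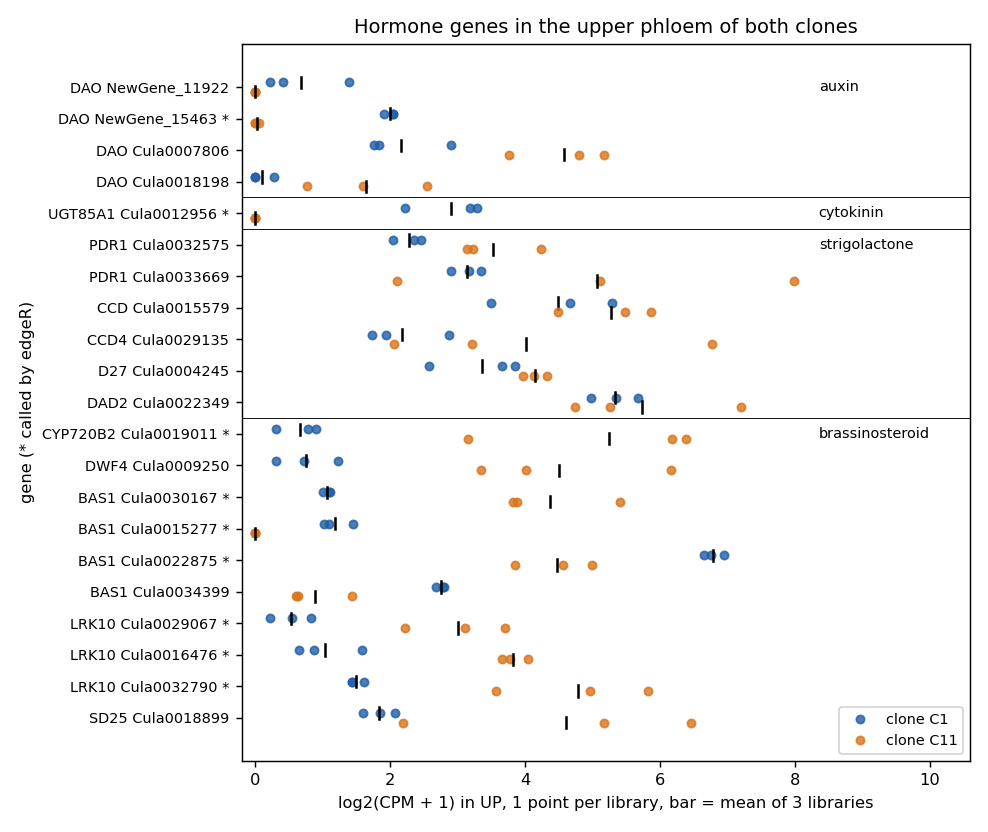
Level of each named hormone gene in UP as log2(CPM + 1), with 1 point per library, C1 in blue, C11 in orange, a bar at the mean of 3 libraries and a star where edgeR called the gene. The C1 points mostly lie close together while the C11 points spread, and the clones do not overlap for any of the 10 brassinosteroid genes.

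The pink module holds 981 genes that the study grouped by their joint expression over all libraries and related to hormone levels. Few of them were called between the clones in UP. Of the 802 members tested, 1 was called, against 3.94% over all genes. An unadjusted p under 0.05 was seen for 41, against 19.8% over all genes, and DESeq2 called 11, against 13.4%. The values of the clones did not overlap for 128 members (16.0%), against 30.3% over all genes. The median log2 fold change was 0.11, against -0.06. A wide spread among the libraries of a clone also lowers such counts, and its part here was not tested. The gene called was NewGene_13752, with 11, 15 and 15 counts in C1 and 0 in C11 (edgeR, adjusted p = 0.0482). It is named after its values were seen.

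The study's text names 14 module genes, and 0 of them were called by edgeR in UP, against a share of 3.94% over all genes. An unadjusted p under 0.05 was seen for 9 (19.8% of all genes), DESeq2 called 4 (13.4%), and the clones did not overlap in 8 (30.3%). With 14 genes, a count of 0 is near the share over all genes. The study chose several of them for a change in UP on these libraries. PARC (Cula0008351), named after an auxin-regulated gene of tobacco, had 9.11, 6.07 and 5.39 CPM in C1 and 3.06, 2.12 and 1.80 CPM in C11. Its log2 fold change was 1.56 (SE 0.39 and adjusted p = 0.0942 in edgeR), the smallest adjusted p of the 14. The study called module genes with DESeq2 at a looser FDR limit than the one used here. Of the 14, PARC alone was within that looser limit in edgeR, so the 0 is not a repeat of the study's calls. ABCC10 (Cula0015898), an ABC transporter, had 2.46, 5.93 and 5.89 CPM in C1 and 0.354, 0.955 and 1.502 CPM in C11 (log2 fold change 2.34, edgeR's adjusted p = 0.128). At4g22110 (Cula0015730), an alcohol dehydrogenase of the zinc-binding type, had 29.6, 25.7 and 22.8 CPM in C1 and 8.41, 14.0 and 4.14 CPM in C11 (log2 fold change 1.56, edgeR's adjusted p = 0.136). For all 3 the lowest C1 library lay above the highest C11 library.

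Genes of the cell wall and of signalling in the same set had a similar form. PMEI3 (Cula0027779), an inhibitor of pectin methylesterases, had 29.3, 26.0 and 28.7 CPM in C1 and 8.33, 16.0 and 2.86 CPM in C11 (log2 fold change 1.63, edgeR's adjusted p = 0.207). The receptor kinase IRK (Cula0021977) had 33.4, 41.5 and 41.0 CPM in C1 and 12.7, 26.6 and 9.71 CPM in C11 (log2 fold change 1.24, edgeR's adjusted p = 0.173). The phosphatase PP2C (Cula0014378) was at a log2 fold change of 1.13 and the xylanase XYN5 (Cula0013545) at 1.18 (adjusted p = 0.221 and 0.190 in edgeR). In PMEI3, IRK and PP2C, C11 replicate 2 had the highest and C11 replicate 3 the lowest level of its clone. DFR (Cula0029306), a reductase of flavonoid synthesis, had 22.9, 15.2 and 13.0 CPM in C1 and 3.14, 12.1 and 0.880 CPM in C11 (log2 fold change 1.66, edgeR's adjusted p = 0.359). Lower means in C1 were seen for lipid genes of the set. FAR3 (Cula0035785), a reductase that makes fatty alcohols for wax and suberin, had 7.08, 3.18 and 2.16 CPM in C1 and 4.05, 19.0 and 20.5 CPM in C11, which overlap (log2 fold change -1.81, edgeR's adjusted p = 0.251). TSC10A (Cula0027148), a reductase of sphingolipid synthesis, had 4.43, 3.39 and 1.80 CPM in C1 and 4.05, 8.22 and 13.9 CPM in C11 (log2 fold change -1.44, edgeR's adjusted p = 0.241).

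Very long-chain fatty acids, the building blocks of cuticular wax, suberin and part of the sphingolipids, are made by an elongation cycle whose last step is carried out by ECR. No gene of this route in the module was called in UP, although with lists of this size few or no calls are also what the 3.94% over all genes would give. ECR (Cula0015187) had 161, 145 and 137 CPM in C1 and 101, 186 and 92.2 CPM in C11, so the log2 fold change was 0.23 (SE 0.31 and adjusted p = 0.734 in edgeR). Of the 20 module genes with the most connections in the study's network, 18 were tested, 9 were higher and 9 lower in C1, and edgeR called 0, with 0 at an unadjusted p under 0.05 and 0 called by DESeq2. Their 13 tested genes for very long-chain fatty acids had higher means in C1 in 5 and lower in 8, with a median of -0.39, against -0.06 over all genes. The largest positive difference among the 18 was that of FATB1 (Cula0023747), which releases fatty acids from their carrier protein, with 5.76, 5.81 and 5.52 CPM in C1 and 0.982, 4.57 and 0.916 CPM in C11 (log2 fold change 1.397, edgeR's adjusted p = 0.329). DCR (Cula0008822), an acyltransferase of cutin synthesis, had 255, 173 and 186 CPM in C1 and 135, 412 and 35.1 CPM in C11. At5g33370 (Cula0009363), a GDSL esterase, had 13.3, 5.16 and 3.86 CPM in C1 and 9.54, 60.7 and 0.696 CPM in C11, and its -1.67 on the log2 scale was the most negative of the 18 (edgeR, adjusted p = 0.543). In both genes the C1 range lay inside that of C11. The cuticular lipid exporter ABCG11 (Cula0028169) had 40.7, 23.9 and 23.9 CPM in C1 and 23.3, 74.9 and 17.9 CPM in C11, and the transporter ABCG39 (Cula0002596) had 89.6, 68.8 and 70.1 CPM and 44.35, 147 and 34.6 CPM. KCS1 (Cula0031243), a condensing enzyme of the elongation cycle, had 4.03, 0.826 and 1.16 CPM in C1 and 0.0786, 5.29 and 0 CPM in C11. C11 replicate 2 was the highest of the 6 libraries in these 5 genes and in ECR.

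Pathway lists within the module were as small, and their counts are to be read against the same 3.94%. For cutin, suberine and wax biosynthesis, 22 of 32 members were tested, 12 had higher and 10 lower means in C1, edgeR called 0 (2 at an unadjusted p under 0.05, 1 with DESeq2), and the median log2 fold change was 0.04. The member called by DESeq2 was Cula0035551, with 1.26, 0.442 and 1.36 CPM in C1 and 0.0786, 0.239 and 0 CPM in C11 (log2 fold change 3.20, edgeR's adjusted p = 0.186). For fatty acid elongation, 12 of 15 were tested, 8 had higher means, 0 were called by edgeR or DESeq2, 0 had an unadjusted p under 0.05, and the median was 0.18. For plant hormone signal transduction, 20 of 24 were tested, 14 had higher means, 0 were called by edgeR or DESeq2, 0 had an unadjusted p under 0.05, and the median was 0.32. Sphingolipid metabolism leaned the other way, with 13 of 14 tested members lower in C1 and a median of -0.62, though edgeR called 0 (1 at an unadjusted p under 0.05, 0 with DESeq2). No member of the sphingolipid list had libraries that did not overlap. In most of its members C11 replicate 2 was the highest of the 6 libraries, and in the rest C11 replicate 1 or 3. Cula0024056, for example, had 12.9, 3.66 and 3.23 CPM in C1 and 6.13, 37.7 and 0.806 CPM in C11. Phenylpropanoid biosynthesis had 5 of 7 members tested, with 2 higher and 3 lower means in C1, and edgeR called 0 (1 at an unadjusted p under 0.05, 1 with DESeq2). The member that DESeq2 called, Cula0005368, had 0.585, 0.560 and 0.599 CPM in C1 and 1.81, 2.49 and 1.36 CPM in C11 (log2 fold change -1.69, edgeR's adjusted p = 0.0973), and without C11 replicate 3 it was called at -1.88 (edgeR, adjusted p = 0.03996). Cula0005368, Cula0035551 and Cula0024056 are named after their values were seen.

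The sum of 9 surface genes took the same order among the C11 libraries as PMEI3, IRK, PP2C and DFR, highest in replicate 2 and lowest in replicate 3. Summed over these genes of cuticle and wax formation (DCR, At5g33370, the pairs of WSD1 and CYP86B1 homologs, ABCG11, KCS1 and FAR3), the level on the scale of all 18 libraries was 330, 211 and 225 CPM in the C1 libraries of UP and 169, 594 and 74.4 CPM in those of C11. On that scale DCR alone had 260, 176 and 190 CPM in C1 and 132, 418 and 35.2 CPM in C11. The sum was thus mostly DCR in every UP library except C11 replicate 3. All 9 genes had counts in every C1 library, whereas in C11 replicates 1, 2 and 3 the numbers were 7, 9 and 4. In the buds the sum was 603 to 2366 CPM. The named module genes PARC, ABCC10 and TSC10A did not take the order of the sum among the C11 libraries. All genes compared here belong to the pink module, which the study grouped by joint expression. An order shared among them is therefore no separate evidence. FAR3, itself 1 of the 9, was highest in C11 replicate 3. The 9 genes are a selection, and other members of the cutin, suberine and wax list were not low in that library. Cula0025966 had 1.45, 27.5 and 24.99 CPM in C11 replicates 1, 2 and 3, and Cula0006697 had 21.1, 87.5 and 84.3 CPM (both named after their values were seen). Calling the 9 surface genes rests on their matches in other species, and no cell type was measured here. In bulk tissue fewer cells of a type and less RNA per cell cannot be told apart. The part of surface cells in the module's values was not tested.

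**Figure D4:**
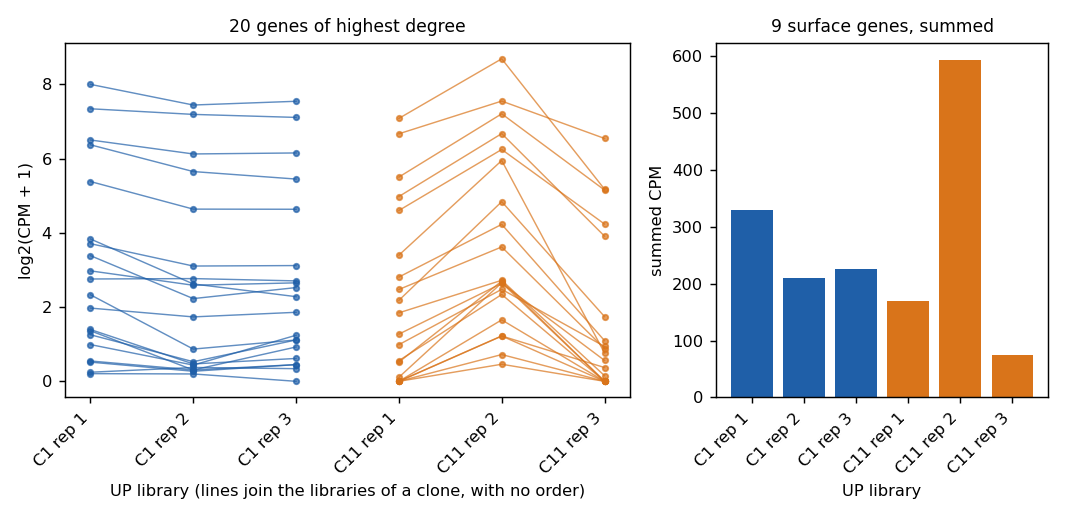
Left, log2(CPM + 1) of each of the 20 most connected module genes in the 6 UP libraries, with C1 in blue and C11 in orange and lines that join the libraries of a clone. Right, summed CPM of the 9 surface genes in the same libraries, on the scale of all 18 libraries, from 74.4 in C11 replicate 3 to 594 in C11 replicate 2.

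The clone differences in UP were then set beside those in the buds, which came from the same clones. Of the 951 genes called in UP, 846 were tested in AB, 832 of them with the same direction and 526 called there in that direction. In LB these numbers were 871, 852 and 539. Over all genes tested, 4.55% were called in AB and 4.27% in LB. None was called in the opposite direction in either bud. A total of 432 genes were called in all 3 tissues, and 318, of which 140 were higher in C1, were called in UP and in neither bud. A gene called in UP alone is not thereby shown to differ between tissues. Of these 318 genes, 56 had an unadjusted p under 0.05 for a difference of the clone effect between UP and AB, and 62 between UP and LB.

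**Figure D5:**
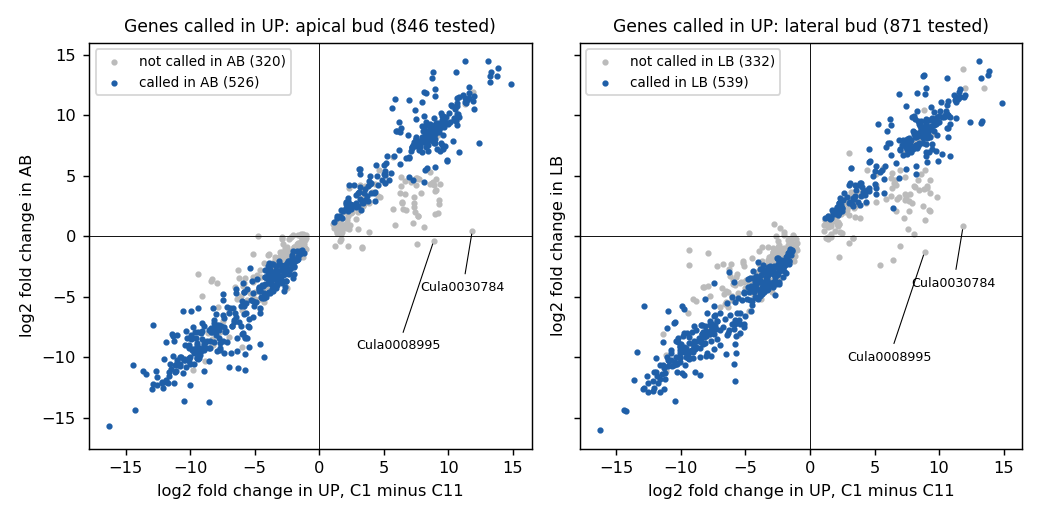
Log2 fold change, C1 minus C11, in AB (left) and LB (right) against that in UP, for the genes called in UP that were also tested in the bud. Genes also called in the bud are blue and the others grey, and 832 of 846 genes in AB and 852 of 871 in LB have the same sign in both tissues.

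The named hormone genes had the direction seen in UP in the buds as well, with 1 exception among those tested. NewGene_15463 was not tested in either bud. UGT85A1 (Cula0012956) had no counts in any C11 library of the buds, and 30 to 113 counts in those of C1. The DAO homolog Cula0007806, which missed the threshold in UP, was called lower in C1 in AB and in LB, at log2 fold changes of -2.13 and -2.29. BAS1 Cula0034399 was called higher there at 4.23 and 3.61, against 2.64 in UP, where it was not called. These genes had the same sign in the 3 tissues, and no difference between tissues passed the test. DAD2 (Cula0022349) was the exception, at -0.79 in UP, 1.36 in AB and 0.83 in LB, none of them called, with an unadjusted p = 0.0128 for UP against AB and an adjusted p = 1.00 in edgeR.

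Some genes were called in UP and had too few counts in both buds for a test, 64 in number, with 41 higher in C1. Examples chosen afterwards for their high level are the following. NewGene_9294 had UP counts of 141, 167 and 126 in C1 and 0 in C11, with at most 94 counts in a C1 library of the buds and none in their C11 libraries. Cula0028348 had UP counts of 229, 97 and 88 in C1 and none in any C11 library of the 3 tissues. Cula0013258 had 12, 11 and 6 counts in C1 and 419, 108 and 124 in C11, a difference in the other direction (edgeR, adjusted p = 0.0367). Low counts in the buds are part of how these genes were chosen.

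An interaction term over the 18 libraries tested whether the clones differed more or less in UP than in AB. It passed an FDR of 0.05 for 2 of 27174 genes (0.00736%), with 906 (3.33%) at an unadjusted p under 0.05. DESeq2 called 27, among them 1 of the 2. Between UP and LB it passed for 3 genes (0.0110%), with 854 (3.14%) at an unadjusted p under 0.05. DESeq2 called 46, among them all 3. Libraries of UP and AB with the same replicate number deviated together in each clone. When that pairing entered the model as a block, 0 genes passed in edgeR for UP against AB and 1641 were at an unadjusted p under 0.05.

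Cula0030784 passed in both tests. Its UP counts were 722, 472 and 325 in C1 and 0 in all 3 libraries of C11, a fold of at least 431. In AB the C1 libraries had 915, 798 and 345 counts and the C11 libraries 561, 146 and 695, and in LB they had 264, 938 and 611 and 278, 234 and 374. The gene was thus counted in all libraries of the series except the UP libraries of C11. Its clone effect differed with edgeR's adjusted p = 0.0219 against AB and 0.0163 against LB.

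The other genes that passed had counts of 0 in a bud rather than in UP. Cula0015494 had 9, 8 and 4 counts in C1 and 123, 129 and 90 in C11 in UP, and 0 in all C1 libraries of AB. NewGene_8396 had 4, 10 and 8 counts in C1 and 341, 374 and 353 in C11 in UP, and 0 in all C1 libraries of LB. Cula0009960 had 40, 32 and 31 counts in C1 and 139, 159 and 20 in C11 in UP, and 0 in all C1 libraries of LB. Cula0015494 and NewGene_8396 were called lower in C1 in UP and in both buds. Cula0009960 was not called in UP (edgeR, adjusted p = 0.254), and its C11 replicate 3 lay below all C1 libraries.

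Other genes had a different sign, or a much smaller difference, in the buds without passing the test. Of the 951 called genes, 24 had the opposite sign in at least 1 bud, and none of them had an interaction under an FDR of 0.05. Cula0021010 had 539, 1057 and 792 counts in C1 and 60, 121 and 26 in C11 in UP (log2 fold change 3.31, edgeR's adjusted p = 0.0434), against log2 fold changes of -0.87 in AB and -0.13 in LB. Its interaction with AB had an unadjusted p = 0.000437 and an adjusted p = 0.965 in edgeR. NewGene_10989 had 8, 24 and 20 counts in C1 and 278, 206 and 705 in C11 in UP (log2 fold change -4.75, edgeR's adjusted p = 0.0320), against 0.04 in AB and 0.25 in LB. Cula0020772, an abundant gene, had the same sign in the 3 tissues. It had 107, 98.0 and 101 CPM in C1 and 273, 242 and 197 CPM in C11 (log2 fold change -1.22, edgeR's adjusted p = 0.0373), against -0.18 in AB and -0.04 in LB. The first and second of these genes are named after their values were seen.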

How the data were processed

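RNA-seq was analysed from the upper phloem of the clones C1 and C11, with 3 libraries each and 26796290 to 31527488 counts per library, and the 12 bud libraries were used for the comparison between tissues. Paired-end reads were aligned to the genome with Hisat2 by the authors, who deposited raw counts for each gene. Which program counted them, whether strand was used and how multi-mapping reads were treated was not stated in the sources used here. The paper calls the libraries of a group biological replicates. Genes in the table number 46723, and there were 0 columns that belong to no sample.

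The 6 UP libraries were fitted on their own and without covariates in edgeR 4.0.16 (R 4.3.3), with TMM factors, the filterByExpr minimum, the quasi-likelihood F test and Benjamini-Hochberg adjustment. A gene was called where it differed at least 2-fold with an FDR under 0.05, as in the paper's screen of all genes. For the genes of the pink module the paper used a looser FDR limit, which was not used here. Interactions were fitted over all 18 libraries in 6 groups, without a pairing. Libraries of UP and AB with the same replicate number had deviations from their group means that correlated at 0.103 to 0.49. Between UP and LB they correlated at -0.036 to 0.653. The number was therefore also entered as a block, from the data and not from the labels. Interaction p-values of single genes are those without the block. All tests are two-sided. Exact permutation of 3 against 3 libraries cannot give a p under 0.1 and was not used. A fold against a group without counts is a lower bound with 3 counts over the group as the floor, and a group with 1 to 3 counts gets the ratio and an exact 95% interval. Both cover counting error only. Lists were described by counts and medians, without a set test.

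Alternatives were DESeq2 1.42.0, RLE and upper quartile factors, no filter, a filter at 1 CPM in 3 libraries, the fit of all 18 libraries, glmTreat, a replicate block, other count minimums, other pseudocounts, and each library left out in turn. Named genes are those the study names with an identifier, its 20 most connected module genes, strigolactone and DAO genes labelled in an earlier description of these data, the 8 called genes of smallest p and the 6 of largest mean CPM in each direction, the 5 largest without counts in each clone, and the genes passing an interaction test. Of these, the text gives those its statements turn on. The members and lists were chosen with earlier results of these data known. The fits were tested on simulated counts with 200 changed genes. Python 3.11.15, numpy 2.4.6, pandas 2.3.3, scipy 1.17.1 and matplotlib 3.10.9 were used for summaries and figures. DAO identifier NG_15483 of the paper was not found among the counts and was not analysed here. The paper's own fold changes were not used.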

Additional observations from a re-analysis of the deposited data

Results flagged for a closer look

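For Cula0030784 the clone effect in UP differed from that in AB (edgeR, adjusted p = 0.0219) and from that in LB (edgeR, adjusted p = 0.0163). For Cula0015494 it differed between UP and AB (edgeR, adjusted p = 0.0463), and for NewGene_8396 and Cula0009960 between UP and LB (edgeR, adjusted p = 0.0163 and 0.0423). The clone effect of Cula0009960 in UP itself was not called (edgeR, adjusted p = 0.254), at -1.85 on the log2 scale, and was called without C11 replicate 3, at -2.34 (edgeR, adjusted p = 0.0174). With the replicate number as a block, none of these differences between tissues passed: edgeR called 0 genes against AB and 0 against LB, with 1641 and 1421 at an unadjusted p under 0.05. Their counts per library are given with the comparison of the tissues.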

How the results depend on the processing

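The count of 951 genes called in UP was 814 with a filter at 1 CPM, 956 with RLE factors and 902 with upper quartile factors. It was 3230 with DESeq2, which included all 951, 2054 in the fit of all 18 libraries, which included 860, 456 with glmTreat and 524 without a filter, and it lay between 0 and 2683 with a library left out. The replicate numbers of the clones shared no more than a number, since the deviations of libraries with the same number correlated at 0.099, -0.159 and -0.027. Within a clone, such deviations correlated between UP and LB at 0.653, 0.456 and 0.606 in C11 and at 0.426, -0.036 and 0.313 in C1. Between UP and AB they correlated at 0.103 to 0.49. A pairing was thus not set aside for either bud, and the block was fitted for both. With the replicate block edgeR called 0 genes in UP (3535 at an unadjusted p under 0.05), 0 for UP against AB and 0 for UP against LB (1421 at an unadjusted p under 0.05). The UP against AB interaction gave 27 genes with DESeq2, 1 without a filter and 0 to 6 with a replicate left out, and the UP against LB interaction gave 46 with DESeq2 and 0 to 2 with a replicate left out. Against AB, the 6 genes called without C11 replicate 2 included 1 of the main calls, and the 1 called without C11 replicate 3 was not a main call. Against LB, the 2 called without C11 replicate 2 were not main calls, while the 1 called without C1 replicate 1 or without C11 replicate 3 was. With minimums of 5 and 20 counts, 419 and 180 genes had no counts in C11, and 399 and 165 had none in C1. With a library left out these numbers were 308 to 370 and 299 to 375. With a pseudocount of 0.1 the median correlation within C1 was 0.973 in place of 0.982, and that between the clones 0.801 in place of 0.849. Of 53 genes with a printed fold, followed over 13 settings, 1 of 687 values reversed, DAD2 (Cula0022349), which ranged from -1.17 to 0.35 with a C11 library left out, and 143 lost and 27 gained a call. The cause of these changes was not tested, and a smaller number of libraries was not told apart from the loss of a particular library. What depth limits was not tested.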
